A study of Mus musculus with 94 samples.

Results

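The L1_Mm, L1_Mus1, L1_Mus2, L1_Mus3 and L1_Mus4 elements are copies of mouse LINE-1 (L1) retrotransposons that repeat annotation sorts into these 5 subfamilies. They were chosen by name: every element of the count table named L1_Mm or beginning with L1_Mus was taken, except L1_Mm_dup4871, L1_Mus2_dup18345 and L1_Mus3_dup17767, which the selection leaves out. The choice was made with earlier results of these data known. This gave 52008 of the 430083 elements of the table (12.1%), of which 20001 were L1_Mus3, 14258 L1_Mus1, 9386 L1_Mus2, 5238 L1_Mus4 and 3125 L1_Mm.

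Total RNA from the cortex and hippocampus of male Ts65Dn (TS) mice and wild-type (WT) littermates was sequenced. Reads were counted on single L1 copies. The samples are labelled with an age of 3 to 4 months. Whether this is the age at the start of treatment or at tissue collection is not stated. TS mice came from B6EiC4Sn.BLiA-Ts(1716)65Dn/DnJ females crossed with B6C3F1/OlaHsd hybrid males, they are a segmental trisomy model of Down syndrome, and WT mice came from the same litters. Mice of the treated groups (TS-t and WT-t) received lamivudine, an inhibitor of reverse transcriptase, at 3 mg/kg in the drinking water for 4 months, and non-treated mice (TS-nt and WT-nt) drank water. There were 9 cortex libraries of WT-nt mice, 17 of WT-t, 9 of TS-nt and 13 of TS-t. For hippocampus the numbers were 8, 17, 8 and 13, and 46 mice had both tissues.

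An L1 is a retrotransposon that copies itself through RNA. A complete copy encodes an RNA-binding protein and a protein with endonuclease and reverse transcriptase activity, and most copies in the genome are truncated or mutated and can no longer move. The copies known to move in today's mice belong to the L1Md subfamilies, whereas L1_Mus and L1_Mm are separate subfamily names. Many copies lie inside genes, where their sequence is part of the gene's unspliced RNA.

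Between 186545 and 1165192 reads per cortex library and between 178454 and 403378 per hippocampus library were counted on L1 elements. The highest total was that of the cortex library of WT-nt mouse 24. From 344 to 13091 of the 52008 elements had a count in a cortex library, with the lowest number in WT-t mouse 1 and the highest in TS-nt mouse 27, and from 2264 to 7999 in a hippocampus library. On the first principal component of the tested L1 elements 8 cortex libraries stood apart (WT-t mice 1, 3, 4 and 47, TS-t mice 2 and 8, TS-nt mouse 23 and WT-nt mouse 24), and no hippocampus library did. The animal labels of all non-treated mice began with 20, whereas those of treated mice began with 18, 19 or 20, so values with treated mice limited to labels beginning with 20 are given beside the main treatment results. The treated mice with such labels were WT-t mice 22, 47 and 48 and TS-t mice 20, 21, 35, 36, 37, 38, 39 and 46. Values of WT-t limited in this way thus rest on few mice, of which mouse 47 stood apart in cortex. In bulk tissue, fewer cells of a type and less RNA per cell cannot be told apart. The table holds no genes, so the tissue labels could not be compared with marker genes.

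Most of these elements were rarely counted. No read was assigned in any library to 8923 of them (17.2%), a share that ran from 9.56% of L1_Mus4 to 27.8% of L1_Mm, and only 31 elements had a count in every library. In cortex the elements held 1640344 counts, of which 37.2% fell on L1_Mus3, 29% on L1_Mus1, 20.3% on L1_Mus2, 10.2% on L1_Mus4 and 3.23% on L1_Mm. The shares in hippocampus, of 1102885 counts, were 36%, 30.5%, 20.7%, 9.54% and 3.24% in the same order. L1_Mm was thus counted less per annotated element than the others, with 16.9 counts per element over all cortex libraries against 30.5 to 35.5 in the L1_Mus subfamilies. Element lengths are not part of the table, so levels were not compared per length. The filter on low counts was passed by 783 of the 52008 elements in cortex (24 L1_Mm, 222 L1_Mus1, 133 L1_Mus2, 314 L1_Mus3 and 90 L1_Mus4) and by 576 in hippocampus (16, 173, 94, 231 and 62), with 511 in both.

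The counts were spread over very many copies, and L1_Mus2 was the exception. Over all 5 subfamilies, 1544 elements held 50% of the counts in cortex and 907 did in hippocampus, and the 100 most abundant elements held 19.2% and 25.4%. In L1_Mus2 a single element, L1_Mus2_dup14312, held 12.4% of the subfamily's counts in cortex and 16.5% in hippocampus. The leading element of each other subfamily held 1.42% to 3.36% in cortex and 1.73% to 4.89% in hippocampus.

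**Figure D1:**
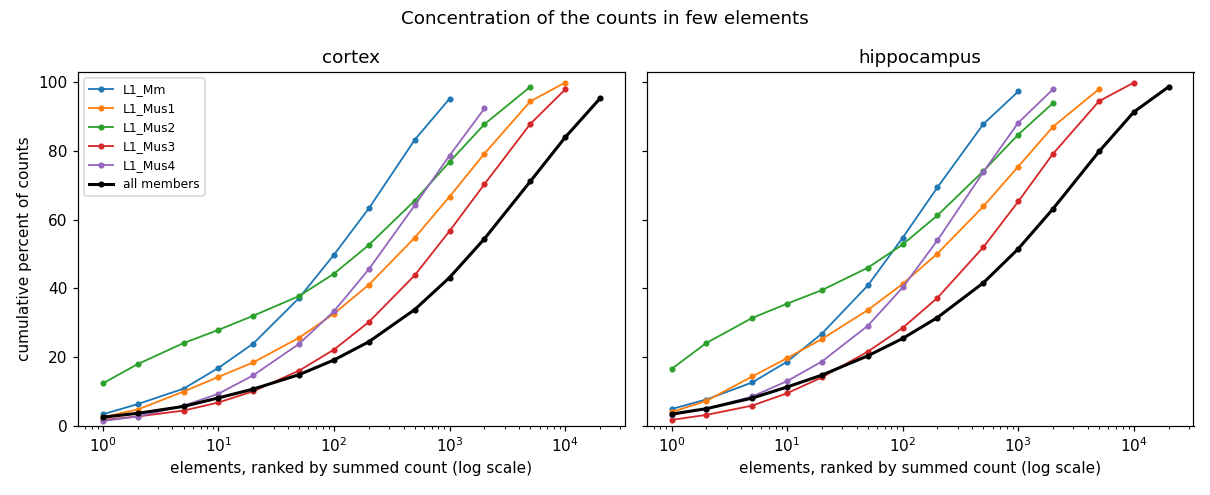
Cumulative percent of a subfamily's counts (y axis) held by its most abundant elements, ranked by summed count (x axis, log scale), in cortex (left) and hippocampus (right), with all members in black. The curve of L1_Mus2 starts at 12.4% in cortex and 16.5% in hippocampus for 1 element, above every other curve.

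Levels of single elements are given as CPM, the usual scaled count relative to the TMM-scaled total of tested L1 elements in the library. L1_Mus2_dup14312 was the most abundant element in both tissues. Its CPM in cortex ran from 2333 to 5897 in WT-nt (median 4999), from 967 to 6475 in WT-t (median 5017), from 3523 to 6506 in TS-nt (median 6013) and from 2497 to 5806 in TS-t (median 5133). In hippocampus the medians of the 4 groups were 4691, 5468, 5737 and 5445 CPM over a range from 4007 to 6986. The groups overlapped in both tissues. Its neighbour by number, L1_Mus2_dup14311, had a median of 2340 CPM in cortex (439 to 3293) and 2542 CPM in hippocampus (1791 to 3346).

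The leading pair of L1_Mus1 also had consecutive numbers. L1_Mus1_dup21145 had a median of 1466 CPM in cortex (343 to 2621) and 1899 CPM in hippocampus (1048 to 3210). L1_Mus1_dup21144 had a median of 1335 CPM in cortex (218 to 2110) and 1487 CPM in hippocampus (918 to 3071). Both were lower in cortex than in hippocampus, with log2 fold changes of -0.42 ± 0.11 (SE) and -0.32 ± 0.11 and edgeR Benjamini-Hochberg adjusted p-values of 0.0012 and 0.022, although the tissues overlapped. L1_Mus1_dup21144 was not called with DESeq2 size factors (-0.19, edgeR adjusted p = 0.127). The leading L1_Mus3 element, L1_Mus3_dup33334, went the other way, with medians of 1316 and 1008 CPM in cortex and hippocampus and a log2 fold change of 0.35 ± 0.11 (edgeR adjusted p = 0.0113). L1_Mus4_dup11602 had medians of 244 and 149 CPM (log2 fold change 0.76 ± 0.18, edgeR adjusted p = 0.000588), and L1_Mus4_dup11157 of 221 and 257 CPM (-0.10 ± 0.16, adjusted p = 0.731). In L1_Mm, L1_Mm_dup172 had medians of 213 and 246 CPM, a difference that was not called (log2 fold change -0.24 ± 0.16, edgeR adjusted p = 0.34). L1_Mm_dup2112 had medians of 195 and 137 CPM (log2 fold change 0.50 ± 0.18, edgeR adjusted p = 0.0375), but 0.00 when only WT-nt mice were compared.

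Whether the 5 subfamilies took up a different part of L1 expression in trisomic or treated mice was examined first with their share of all L1 counts of a library. In cortex the share was 10.1% ± 0.842 (SD, n = 9) in WT-nt, 9.28% ± 1.16 (n = 17) in WT-t, 9.52% ± 0.473 (n = 9) in TS-nt and 9.64% ± 1.02 (n = 13) in TS-t. The 4 groups overlapped, and the lowest library was WT-t mouse 1 at 5.88% and the highest WT-nt mouse 24 at 12.1%. In hippocampus the means were closer, at 9.08% ± 0.549 (n = 8), 8.90% ± 0.492 (n = 17), 8.87% ± 0.678 (n = 8) and 9.14% ± 0.588 (n = 13), and the groups overlapped there too. None of the 10 comparisons of 2 groups passed a two-sided permutation test. The smallest p-values were those of WT-t vs. WT-nt in cortex (difference -0.81 percentage points, exact permutation p = 0.0525, adjusted over 10 p = 0.396) and of TS-nt vs. WT-nt in cortex (-0.57, exact permutation p = 0.0792, adjusted p = 0.396). Without WT-nt mouse 24 these differences were -0.56 and -0.31, and with treated mice limited to labels beginning with 20 the first was -0.58 (exact permutation p = 0.282). With the same labels the hippocampus differences were -0.0173 for WT-t vs. WT-nt and 0.253 for TS-t vs. TS-nt.

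**Figure D2:**
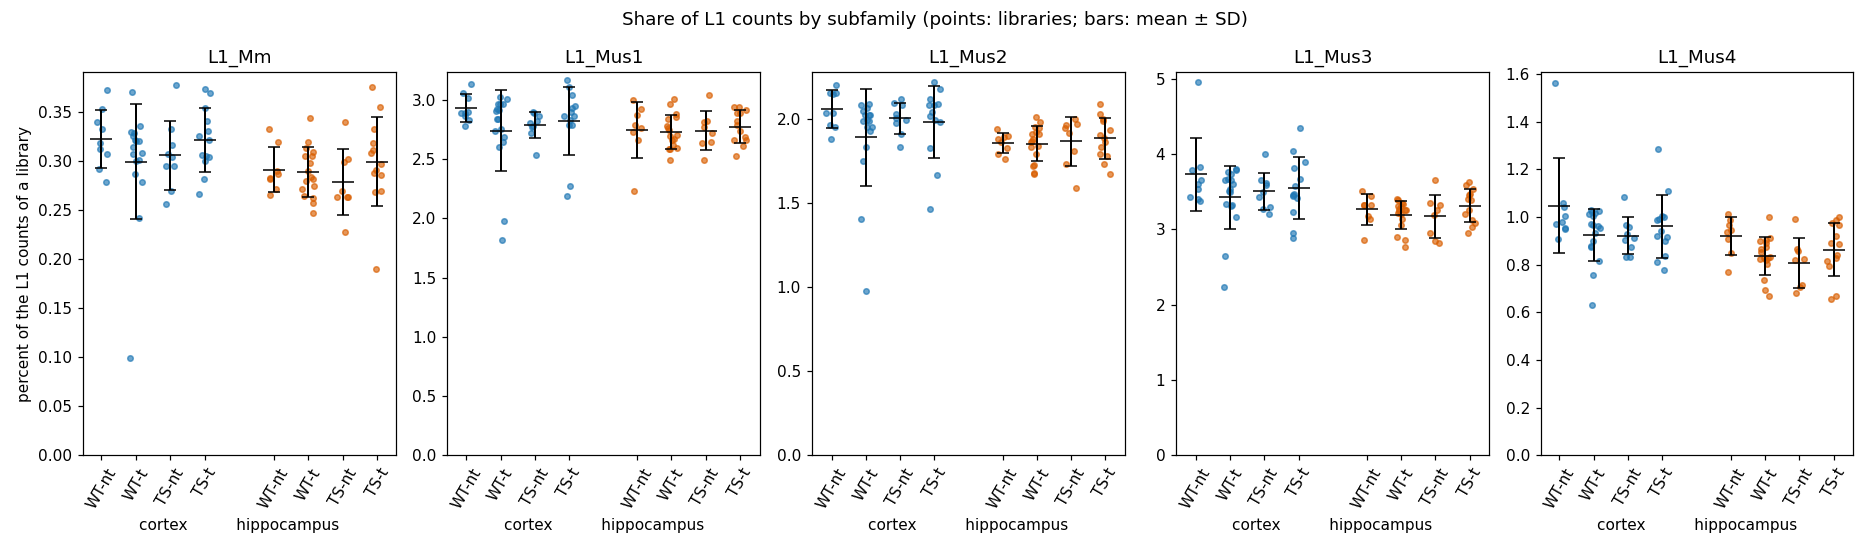
Percent of a library's L1 counts held by each subfamily (y axes, separate scales from 0), for 4 groups in cortex (blue) and hippocampus (orange). Points are libraries and bars are mean ± SD. The groups of a tissue overlap in every subfamily, and the high cortex WT-nt points of L1_Mus3 and L1_Mus4 are mouse 24 at 4.95% and 1.56%.

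By subfamily, L1_Mus3 held on average 3.53% of the L1 counts of a cortex library (2.23% to 4.95%) and 3.24% of a hippocampus library (2.77% to 3.65%). L1_Mus1 held 2.81% and 2.75%, L1_Mus2 1.97% and 1.86%, L1_Mus4 0.957% and 0.854%, and L1_Mm 0.311% and 0.290%. Each subfamily was thus somewhat higher in cortex on average, and in the 46 mice with both tissues the difference was tested within the mouse. For the 5 subfamilies together it was 0.574 percentage points (SD 0.935), with cortex higher in 37 of 46 mice (two-sided paired permutation test, p = 8e-05). L1_Mus3 was higher in cortex in 38 mice and L1_Mus4 in 36 (p = 2e-05 in both, the smallest the permutations can give), L1_Mus2 in 38 (p = 0.00088) and L1_Mm in 33 (p = 0.00322). For L1_Mus1 cortex was higher in 25 mice and the permutation test did not pass (difference 0.0578 percentage points, p = 0.156).

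The counts of each subfamily were then summed and tested as single features among all L1 subfamilies (136 in cortex, 134 in hippocampus), with an adjusted p-value below 0.1 as the threshold. In TS-nt vs. WT-nt, the genotype comparison, none of the 5 passed in cortex, where 1.47% of all subfamilies did. All 5 log2 fold changes were below 0: -0.13 ± 0.09 (SE) for L1_Mm, -0.12 ± 0.05 for L1_Mus1, -0.09 ± 0.05 for L1_Mus2, -0.16 ± 0.08 for L1_Mus3 and -0.26 ± 0.10 for L1_Mus4. The lowest edgeR adjusted p-value was 0.133, in L1_Mus1 and L1_Mus4, with unadjusted p of 0.0115 and 0.0149. A single library carried much of these values, since without WT-nt mouse 24 they were -0.08, -0.07, -0.03, -0.04 and -0.10. Without all 8 libraries that stood apart they were -0.06, -0.05, -0.01, -0.02 and -0.08. DESeq2 called L1_Mus1 and L1_Mus4 in this comparison (-0.17 and -0.33, DESeq2 adjusted p = 0.0735 in both), and the share of all subfamilies it called is not given here. The median over all subfamilies was 0.00. With the 3 left-out elements put back, L1_Mm was 0.14 in this comparison in both tissues.

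In hippocampus, TS-nt vs. WT-nt gave a log2 fold change of -0.20 ± 0.07 for L1_Mus4 (unadjusted p = 0.00688, edgeR adjusted p = 0.184) and between -0.07 and 0.00 for the other 4, and 2.24% of all subfamilies were called. L1_Mus4 was the lowest of the 5 in both tissues. Its share of L1 counts in hippocampus ran from 0.768% to 1.01% in WT-nt (median 0.941%) and from 0.680% to 0.992% in TS-nt (median 0.821%), so the groups overlapped. L1_Mus4 passed the threshold in hippocampus when TS-nt mouse 27, TS-nt mouse 34 or WT-nt mouse 29 was left out (edgeR adjusted p = 0.0557, 0.0931 and 0.0878). Of 16 fits that each left out 1 library, only these called it, and the share of all subfamilies they called is not given here. The difference between the tissues in the genotype effect was itself tested and passed for none of the 5 (0% of all subfamilies were called), with the smallest p in L1_Mus1 (-0.11 ± 0.06, p = 0.0513, edgeR adjusted p = 0.753).

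Lamivudine gave no called change of a subfamily in either genotype. In WT cortex (WT-t vs. WT-nt) the log2 fold changes of L1_Mm, L1_Mus1, L1_Mus2, L1_Mus3 and L1_Mus4 were -0.10 ± 0.08, -0.08 ± 0.04, -0.11 ± 0.05, -0.12 ± 0.07 and -0.17 ± 0.09 (lowest edgeR adjusted p = 0.369). Without WT-nt mouse 24 they were -0.04, -0.01, -0.04, 0.02 and -0.0016, and with labels beginning with 20 they were -0.17, -0.07, -0.13, -0.17 and -0.20. In TS cortex (TS-t vs. TS-nt) the values had the opposite sign, at 0.14 ± 0.09, 0.07 ± 0.04, 0.03 ± 0.05, 0.07 ± 0.07 and 0.12 ± 0.10 (lowest edgeR adjusted p = 0.687), and with labels beginning with 20 they were 0.05, 0.03, -0.0039, 0.01 and 0.03. The interaction of treatment and genotype, which tests this difference, was 0.24 ± 0.12, 0.15 ± 0.06, 0.15 ± 0.07, 0.19 ± 0.10 and 0.29 ± 0.13. Its unadjusted p was below 0.05 in all but L1_Mus3 (p = 0.0616), but the edgeR adjusted p-values were 0.22 to 0.262, and WT-nt mouse 24 is one of the libraries of this contrast. With labels beginning with 20 the interaction was 0.21, 0.10, 0.13, 0.18 and 0.23 (edgeR adjusted p = 0.713 in all 5). DESeq2 called 3 of the 5 in the interaction (L1_Mus1, L1_Mus2 and L1_Mus4, DESeq2 adjusted p = 0.0992 in each), again without a share over all subfamilies to set beside it.

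In hippocampus, WT-t vs. WT-nt was -0.15 ± 0.06 for L1_Mus4 (unadjusted p = 0.016, edgeR adjusted p = 0.713) and between -0.04 and -0.01 for the others. TS-t vs. TS-nt was 0.08 ± 0.06 for L1_Mus4, 0.09 ± 0.07 for L1_Mm and 0.00 to 0.05 for the rest. The interaction was largest in L1_Mus4 (0.23 ± 0.09, unadjusted p = 0.0103, edgeR adjusted p = 0.444). With labels beginning with 20, L1_Mus4 was -0.14 for treatment in WT mice, 0.06 for treatment in TS mice and 0.19 for the interaction (edgeR adjusted p = 0.987). Across all L1 subfamilies 0% were called in these treatment comparisons and in the interaction, in both tissues. TS-t vs. WT-nt called none of the 5 (0% of all subfamilies in cortex, 2.24% in hippocampus), and neither did TS-t vs. WT-t (0.735% and 0%). The difference between tissues in TS-t vs. TS-nt was not called for any of the 5 or for any other subfamily (0%).

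**Figure D3:**
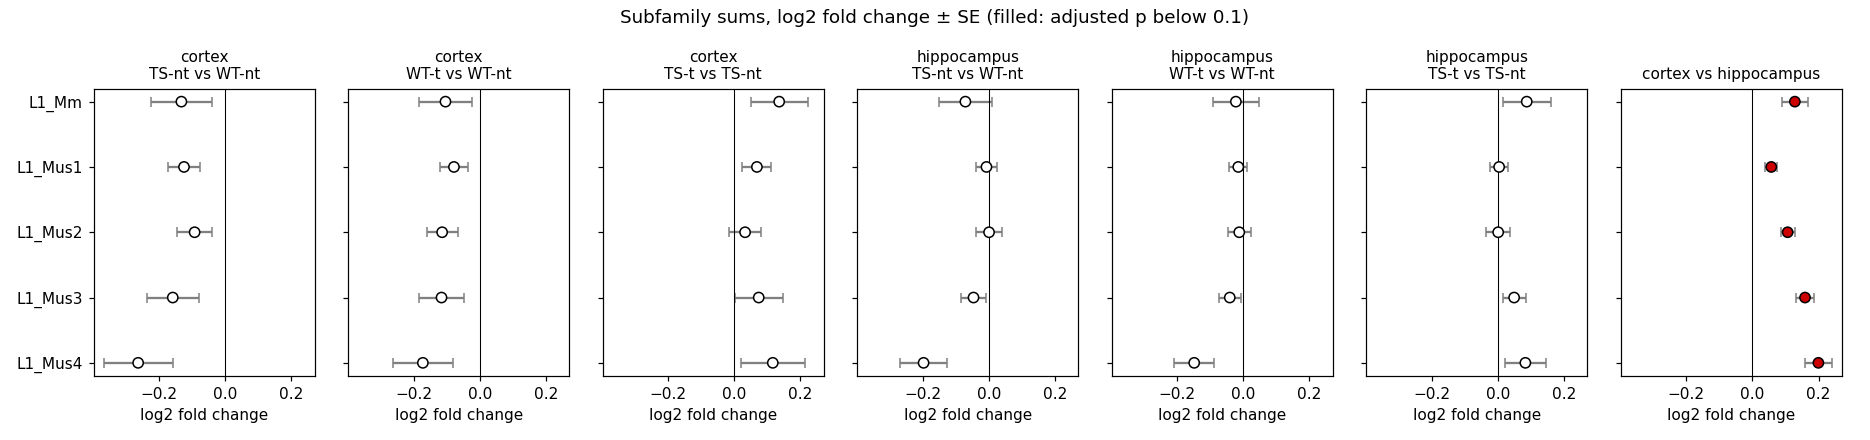
Log2 fold change ± SE (x axes) of the summed counts of each subfamily (y axis) in 6 within-tissue comparisons and in cortex vs. hippocampus. Filled points have an edgeR adjusted p-value below 0.1: only the 5 of cortex vs. hippocampus, from 0.06 to 0.20, are filled.

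Between tissues all 5 subfamilies were called, each higher in cortex: 0.13 ± 0.04 for L1_Mm, 0.06 ± 0.02 for L1_Mus1, 0.11 ± 0.02 for L1_Mus2, 0.16 ± 0.03 for L1_Mus3 and 0.20 ± 0.04 for L1_Mus4 on the log2 scale (edgeR adjusted p from 1.5e-06 to 0.00474). A tissue difference was common among L1 subfamilies, 69.9% of which were called in one direction or the other. Of 3 other subfamilies taken for comparison, L1Md_F2 was higher in cortex by 0.15 ± 0.03, Lx3_Mus by 0.21 ± 0.04 and L1_Mur2 by 0.28 ± 0.05, so the L1_Mus values lay in or below the same range. With the mouse as a block, which pairs the 2 tissues of 46 mice, the values were 0.13, 0.06, 0.10, 0.15 and 0.19 and all stayed called. Without the 8 cortex libraries that stood apart the values were 0.12, 0.04, 0.09, 0.11 and 0.14, all called. Scaled by library totals, L1_Mus1 was no longer called (0.0363, edgeR adjusted p = 0.256) and the other 4 were. When only WT-nt mice were compared, none of the 5 passed.

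Among single elements, 1117 of the 52008 passed the filter in the fit of both tissues, and 233 of these (20.9%) differed between cortex and hippocampus, against 22.7% of all 7551 L1 elements tested. The share of elements called was thus near the background. Higher in cortex were 160 (14.3% of 1117, against 12.2% of all L1 elements tested) and lower were 73 (6.54%, against 10.4%). These counts include elements that passed the filter through 1 tissue, where they are high: of 265 that passed in cortex alone all 87 called were higher there, and of 65 that passed in hippocampus alone all 29 called were lower. Among the 511 elements that passed in each tissue by itself, 101 were called (19.8%, against 23.4% of the 3722 L1 elements of this kind). Of the 511, 62 were higher in cortex (12.1%, against 9.19%) and 39 lower (7.63%, against 14.2%). Over all 1117, more of the called elements were higher in cortex under each scaling, with 68.7% of them higher under TMM and 81.9% (263 higher, 58 lower) under DESeq2 size factors. Over all L1 under TMM, 924 of the 1712 called were higher in cortex. Both sets include elements that passed through 1 tissue, more of them through cortex. Under TMM, all called elements that passed in cortex alone were higher there, so part of the majority comes with the filter. The split of all L1 under DESeq2 size factors is not given here, so the 263 and 58 have no background beside them. The median log2 fold change of all tested L1 elements was 0.09 with TMM and 0.22 with DESeq2 size factors, and that of the L1_Mus and L1_Mm elements was 0.20 and 0.34. Among elements that passed in each tissue the TMM medians were -0.03 for all L1 and 0.09 for the L1_Mus and L1_Mm elements. By subfamily, of the elements that passed in each tissue, 12 L1_Mus2 elements were higher in cortex and 7 lower of 86, 30 and 14 of 204 for L1_Mus3, 8 and 4 of 52 for L1_Mus4, 11 and 14 of 157 for L1_Mus1, and 1 and 0 of 12 for L1_Mm. Both of the most abundant L1_Mus1 elements were among the lower ones. With the mouse as a block 222 of 1090 elements were called (20.4%, against 23.1% of all 7388 L1 elements in that fit), 196 of which were called in both fits. With only WT-nt mice, a fit with fewer libraries, 20 were called. The share over all L1 in that fit is not given here, so this count has no background beside it.

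Of the 6 elements with the largest called differences between tissues, 3 in each direction, 5 passed the filter through the tissue where they are high, so their levels are given without a test. L1_Mus4_dup5488 had a count in 4 of 48 cortex libraries (0 to 42.5 CPM, 17 counts in all) and in 40 of 46 hippocampus libraries (0 to 214 CPM, median 72.6, 498 counts). L1_Mus2_dup15488 had a count in 4 cortex libraries (0 to 11.7 CPM, 6 counts in all) and in 38 hippocampus libraries (0 to 134 CPM, median 28.3, 226 counts). Both had no count in most cortex libraries. L1_Mus4_dup10507 was the most abundant L1_Mus4 element of hippocampus and passed the filter in each tissue. It ran from 105 to 949 CPM there (median 481) and from 0 to 521 CPM in cortex (median 39.3), where the highest value was that of WT-t mouse 1. The ranges of the tissues overlapped, and the log2 fold change was -3.26 ± 0.25 (edgeR adjusted p = 9.83e-20).

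In the other direction, L1_Mus3_dup2677 had a median of 39.2 CPM in cortex (0 to 318, a count in 39 of 48 libraries) and of 0 in hippocampus (0 to 48.02, a count in 14 of 46). L1_Mus4_dup680 had a count in 44 cortex and 15 hippocampus libraries, with medians of 40.02 and 0 CPM. L1_Mus2_dup12 had a count in 45 and 20 libraries, with medians of 58.6 and 0 CPM. In each of the 4 groups of mice, all 3 had a count in a larger share of cortex than of hippocampus libraries, the closest being L1_Mus3_dup2677 in TS-nt with 4 of 9 and 2 of 8. The 3 were chosen for this difference over the same libraries, so the likeness of the groups is no separate evidence for it.

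**Figure D4:**
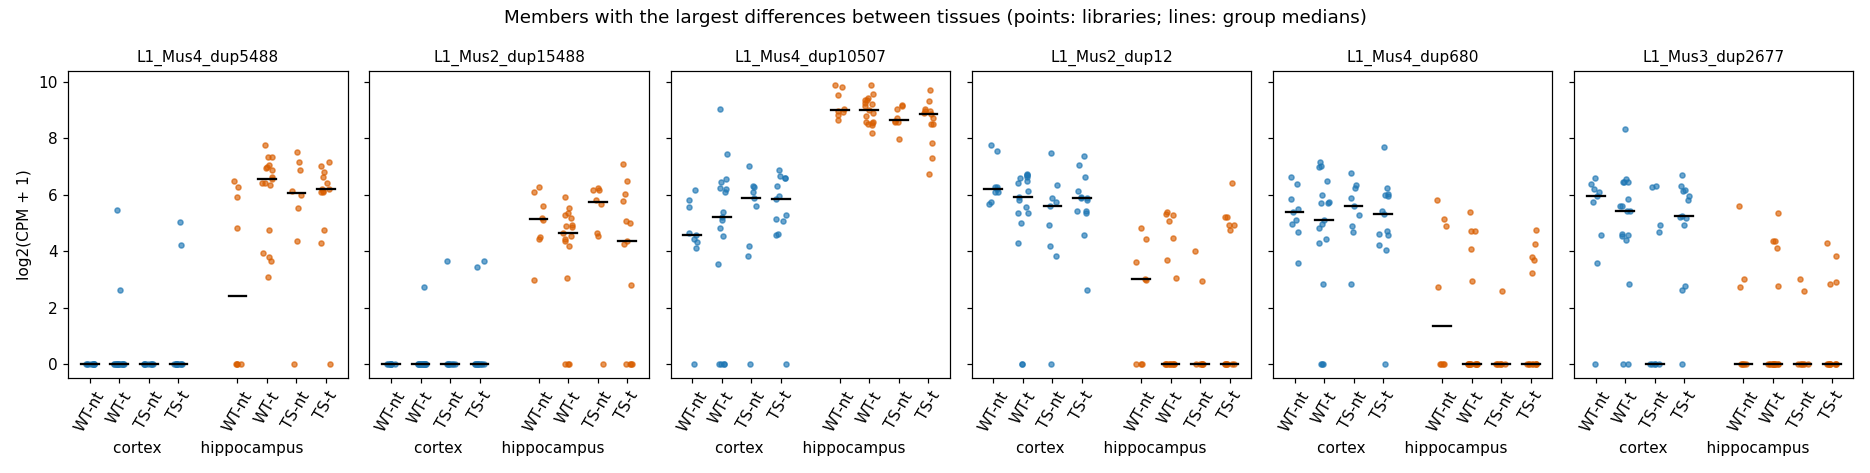
Level of 6 elements, log2(CPM + 1) (y axis), in the libraries of 4 groups in cortex (blue) and hippocampus (orange), with group medians as lines. L1_Mus4_dup5488 and L1_Mus2_dup15488 have a count in 4 cortex libraries each, and the 3 elements on the right have medians of 0 over all hippocampus libraries.

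Within a tissue no single L1_Mus or L1_Mm element passed the test for genotype or treatment. At an edgeR adjusted p-value below 0.1, 0 of 783 elements in cortex and 0 of 576 in hippocampus were called in each of the 6 comparisons, where the share called over all L1 was 0% throughout cortex and in hippocampus 0.0708% in TS-nt vs. WT-nt, 0.0472% where TS-t was compared with WT-nt and 0% in the other 4. The effects of genotype and of treatment in TS mice also did not differ between tissues in any element (0% of all L1 in both tests). DESeq2 called none in cortex, and in hippocampus it called L1_Mus3_dup27035 (-0.91) and L1_Mus1_dup8377 (-1.21) when TS-t was compared with WT-nt, and L1_Mus1_dup8377 (-1.02) when it was compared with WT-t, with DESeq2 adjusted p-values of 0.0994, 0.0994 and 0.0954. The share that DESeq2 called over all L1 is not given here. The absence of calls depended on the filter on low counts: with a filter of only 10 counts in total, edgeR called 4946 of 20814 elements in cortex TS-nt vs. WT-nt (23.8%, against 20.8% of all 186107 L1 elements tested). The called elements had a count in a median of 1 library there, and 67.0% of their counts came from WT-nt mouse 24. In hippocampus the same filter gave 1800 of 13206 elements (13.6%, against 14.5% of all 126067), which had a count in a median of 6 libraries, and no library held more than 3.40% of their counts. Their median total was 19 counts over all hippocampus libraries. With no filter, the same comparison called 0 of 27814 elements (0% of all 270853).

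At an unadjusted p below 0.05 the numbers were small and near the background. In cortex they were 10 of 783 in TS-nt vs. WT-nt (1.28%, against 1.51% over all L1), 7 in TS-t vs. WT-nt (0.894%, against 1.75%), 9 in TS-t vs. TS-nt (1.15%, against 0.905%), 16 in WT-t vs. WT-nt (2.04%, against 1.59%), 22 in TS-t vs. WT-t (2.81%, against 1.96%) and 10 in the interaction (1.28%, against 1.11%). In hippocampus they were 17 of 576 in TS-nt vs. WT-nt (2.95%, against 4.03%), 15 in TS-t vs. WT-nt (2.6%, against 4.25%), 19 in TS-t vs. TS-nt (3.3%, against 3.26%), 15 in WT-t vs. WT-nt (2.6%, against 3.16%), 23 in TS-t vs. WT-t (3.99%, against 3.94%) and 14 in the interaction (2.43%, against 3.11%). The share was below that of all L1 in 6 of the 12 comparisons and above it in the other 6. Each of these shares, also over all L1, was below the rate of 0.05 that the threshold gives when nothing differs. The p-values thus ran high, most of all in cortex, and the absence of calls does not show that no element differs. The median log2 fold change of the tested elements had a range of -0.07 to 0.15 in cortex and of -0.06 to 0.16 in hippocampus, and that of all L1 between -0.03 and 0.09 over both tissues.

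The elements with the smallest p-values show the size of the spread. In TS-nt vs. WT-nt cortex, L1_Mus3_dup45937 ran from 45.6 to 210 CPM in WT-nt (median 90.4) and from 6.15 to 111 CPM in TS-nt (median 30.6), with a log2 fold change of -1.36 ± 0.57 (p = 0.0176, edgeR adjusted p = 0.999). L1_Mus3_dup43099 ran from 49.6 to 244 CPM in WT-nt (median 86.6) and from 0 to 99.03 CPM in TS-nt (median 36.7), with -1.36 ± 0.60 (p = 0.024, edgeR adjusted p = 0.999). The groups overlapped in both elements, and the highest WT-nt value was in each case that of mouse 24, without which the values were -1.15 and -1.10. In hippocampus L1_Mus1_dup3965 had the smallest p: it ran from 20.6 to 143 CPM in WT-nt (median 102.8) and from 96.1 to 254 CPM in TS-nt (median 195), 1.08 ± 0.33 (p = 0.00141, edgeR adjusted p = 0.672). In WT-t mice it ran from 84.1 to 325 CPM (median 169, log2 fold change against WT-nt 1.00 ± 0.29, edgeR adjusted p = 0.9996, and 0.87 with labels beginning with 20), a comparison that shares the WT-nt libraries. L1_Mm_dup2112 had a median of 77.3 CPM in TS-nt hippocampus (34.2 to 179) and 189 CPM in WT-nt (27.4 to 381), with -1.18 ± 0.39 (edgeR adjusted p = 0.884).

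Under lamivudine in TS cortex, L1_Mus3_dup180 had a count in 2 of 9 TS-nt libraries and 8 of 13 TS-t libraries (medians 0 and 31.8 CPM, log2 fold change 2.31 ± 0.98, p = 0.0201, edgeR adjusted p = 0.9998). L1_Mus1_dup7695 had medians of 17.5 CPM in TS-nt (0 to 67.1) and 46.95 CPM in TS-t (0 to 315), with 1.54 ± 0.67 (edgeR adjusted p = 0.9998). With labels beginning with 20 these were 2.01 and 1.08. In TS hippocampus L1_Mus4_dup5664 had medians of 72.5 CPM in TS-nt (27.2 to 164) and 130 CPM in TS-t (60.1 to 393), with 1.19 ± 0.34 (p = 0.00072, edgeR adjusted p = 0.9996), and 1.35 within those labels. L1_Mus3_dup22055 had medians of 53.3 and 124 CPM (1.11 ± 0.41, edgeR adjusted p = 0.9996), and 0.86 within those labels. The groups overlapped in all 4 elements.

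In WT mice, L1_Mus4_dup8077 had a median of 49.3 CPM in WT-t cortex (0 to 125) and 54.9 CPM in WT-nt (25.4 to 384), with -1.25 ± 0.50 (p = 0.0128, edgeR adjusted p = 0.999). The highest WT-nt value was that of mouse 24, which held 41.9% of the group's summed CPM, and without it the log2 fold change was -0.63. L1_Mus3_dup43182 had medians of 188 CPM in WT-nt cortex (121 to 326) and 304 CPM in WT-t (84.8 to 625.5), with 0.80 ± 0.33 (p = 0.0154, edgeR adjusted p = 0.999), and 0.44 within labels beginning with 20. In hippocampus L1_Mm_dup4873 had medians of 33.9 CPM in WT-nt (0 to 74.0) and 110 CPM in WT-t (13.3 to 179), with 1.47 ± 0.52 (p = 0.00627, edgeR adjusted p = 0.9996), and 2.07 within those labels. The groups overlapped in all 3, and none of these values passed the threshold.

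Of these elements, 2 are listed with positions in the study's own table of differentially expressed L1 elements, and both lie in introns. Both were named here under TS-t vs. WT-nt in cortex. L1_Mus3_dup37082 is at chr12:117074055-117075167 of GRCm38 on the plus strand (1113 bases), in an intron of Ptprn2, which lies on the same strand and encodes a receptor-type tyrosine phosphatase-like protein of secretory vesicles. L1_Mus3_dup20262 is at chr8:81808898-81810234 on the minus strand (1337 bases), in an intron of Inpp4b, an inositol polyphosphate phosphatase gene on the plus strand. Neither passed the filter on low counts in either tissue, so they have levels but no test here. These levels come from the same libraries as the study's listing and are no separate evidence for it.

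L1_Mus3_dup37082 had a count in 2 of 9 WT-nt (0 to 6.10 CPM), 8 of 17 WT-t (0 to 119 CPM), 6 of 9 TS-nt (0 to 46.9 CPM, median 23.3) and 12 of 13 TS-t cortex libraries (0 to 59.0 CPM, median 20.4). In hippocampus it had a count in 6 of 8 WT-nt libraries (0 to 35.8 CPM, median 24.7), in 6 of 17 WT-t, in 1 of 8 TS-nt and in 5 of 13 TS-t. The order of WT-nt and TS-nt was thus opposite in the tissues, at 133 counts in all of cortex and 70 in all of hippocampus. L1_Mus3_dup20262 had a count in 7 of 9 WT-nt (0 to 96.0 CPM, median 25.4), 8 of 17 WT-t, 7 of 9 TS-nt (0 to 46.6 CPM, median 11.3) and 2 of 13 TS-t cortex libraries (0 to 17.6 CPM). In hippocampus it had a count in 1 of 8 WT-nt, 9 of 17 WT-t, 4 of 8 TS-nt and 6 of 13 TS-t libraries. Here too the groups overlapped in both tissues.

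The 46 mice with both tissues also show how far a mouse's level in cortex went with its level in hippocampus. For the summed subfamilies the relation was weak: Spearman's rho of log2 CPM was 0.31 for L1_Mm, 0.31 for L1_Mus2, 0.28 for L1_Mus4, 0.22 for L1_Mus3, -0.0020 for L1_Mus1 and 0.18 for all 5 together, with Pearson's r of 0.17, 0.35, 0.18, 0.13, -0.11 and 0.16. The smallest permutation p-values were 0.0343 and 0.035 for rho of L1_Mm and L1_Mus2 (0.105 for both when adjusted over 6) and 0.0182 for r of L1_Mus2 (adjusted p = 0.109). Without the 2 mice farthest from the median in cortex, r was 0.30 for L1_Mm and 0.23 for L1_Mus2. Among the 27 mice with labels beginning with 20, rho was 0.42 and 0.41, among the 12 beginning with 19 it was 0.11 and -0.07, and among the 7 beginning with 18 it was 0.39 and 0.32.

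For single elements, rho between tissues is a description over mice that share groups, labels and library scaling. Over the 511 elements tested in both tissues its median was 0.11 and 9 elements (1.76%) were above 0.5, against a median of 0.11 and 3.36% for all 3722 L1 elements tested in both. The highest were 3 L1_Mus3 elements: L1_Mus3_dup2953 (rho 0.78), L1_Mus3_dup39659 (0.68) and L1_Mus3_dup43182 (0.67). L1_Mus3_dup2953 was also the second most abundant L1_Mus3 element. Its cortex medians were 1071 CPM in WT-nt (413 to 1438), 639 in WT-t (215 to 1140), 928 in TS-nt (233 to 1491) and 678 in TS-t (252 to 1011). In hippocampus they were 1294 CPM in WT-nt (713 to 1454), 832 in WT-t (245 to 1506), 944 in TS-nt (238 to 1613) and 688 in TS-t (244 to 1267). Medians of treated mice were thus below those of non-treated mice in both genotypes and both tissues, with overlapping ranges. The log2 fold changes were -0.60 ± 0.26 in cortex and -0.72 ± 0.28 in hippocampus for WT-t vs. WT-nt, and -0.58 ± 0.28 and -0.42 ± 0.30 for TS-t vs. TS-nt, and none passed (edgeR adjusted p = 0.999 or above in all 4). With treated mice limited to labels beginning with 20 they were -0.43 and -0.71, and -0.39 and -0.26. Both tissues come from the same mice, so they are not independent.

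**Figure D5:**
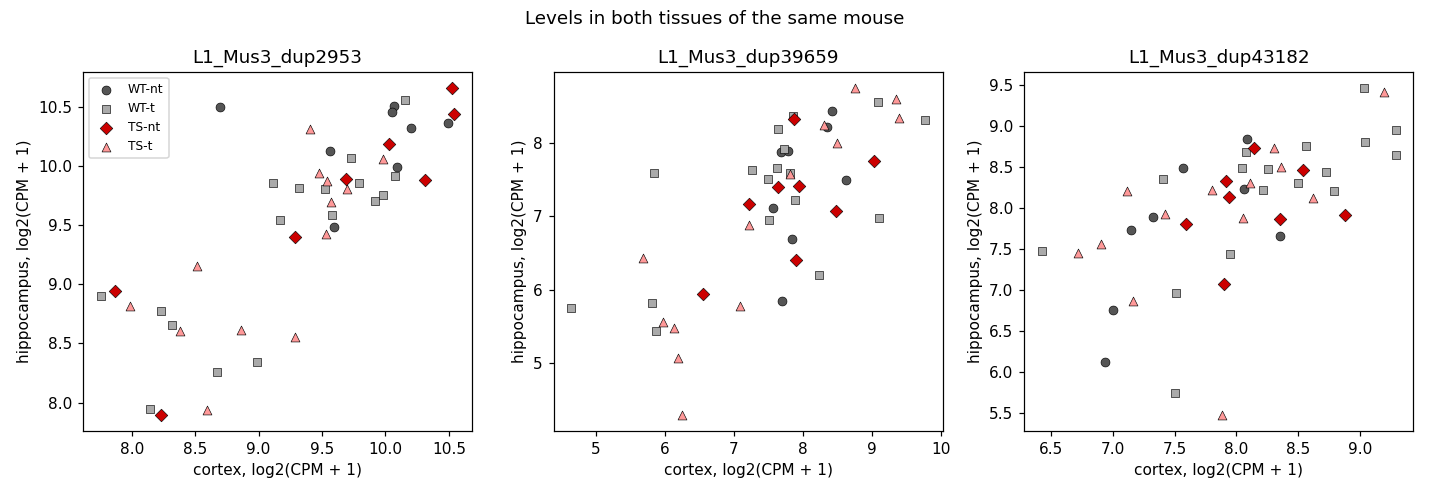
Level in hippocampus (y axis) against level in cortex (x axis), log2(CPM + 1), of 3 L1_Mus3 elements in 46 mice, with symbols for the 4 groups. The points rise together, with rho of 0.78, 0.68 and 0.67, and the low end of L1_Mus3_dup2953 holds mice of all groups but WT-nt.

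The numbers in element names follow the genome: in 22 of 22 neighbouring pairs of listed L1 elements of the same subfamily the number rose with the position. Elements with consecutive numbers can therefore be pieces of sequence that lie near each other, although their positions were not part of the table. In cortex 98 pairs of tested elements had consecutive numbers, with a median rho over libraries of 0.19, against 0.13 in 276 pairs that differed by 2 to 10 and 0.07 in 86357 pairs that differed by more. In hippocampus the medians were 0.17 in 61 pairs, 0.07 in 142 and 0.02 in 47622. The highest values in cortex were 0.69 for L1_Mus2_dup9974 and L1_Mus2_dup9975, 0.65 for L1_Mus1_dup21144 and L1_Mus1_dup21145, 0.60 for L1_Mus2_dup14311 and L1_Mus2_dup14312, and 0.56 for L1_Mus2_dup14312 and L1_Mus2_dup14313. In hippocampus the same 4 pairs had -0.0773, 0.59, 0.13 and 0.15, so of these the L1_Mus1 pair alone was above 0.5 in both tissues. In 23 pairs of consecutive numbers both elements were called in cortex vs. hippocampus, and in all 23 both went in the same direction. This cannot show a link between neighbours. All called elements that passed the filter through 1 tissue went in 1 direction, and no rate for other called pairs is given. Given the higher median rho of consecutive pairs, elements cannot be taken as independent of each other, and counts of called elements include such pairs.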

How the data were processed

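Total RNA was depleted of ribosomal RNA and sequenced. The authors used Trimmomatic 0.38 for trimming and HISAT2 2.1.0 for alignment to GRCm38 (mm10), and counted reads on single L1 copies with Telescope, which reassigns reads that align to several copies. The deposited values are these raw counts, so a count on 1 copy may include reads of near-identical copies. Per the study's methods, RNA of 3 samples of a condition at a time was pooled before its quality was measured. Here each library was treated as 1 mouse, as labelled, and p-values measure only the spread between these libraries.

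Members and lists were chosen with earlier results of these data known. For each tissue, all L1 elements with enough counts (edgeR filterByExpr, min.count 10, min.total.count 15) were TMM-scaled and fitted with the 4 groups using edgeR's quasi-likelihood test (edgeR 4.0.16, R 4.3.3), with Benjamini-Hochberg adjustment over all L1 elements tested and a threshold of 0.1. Subfamily sums were fitted likewise. A joint fit compared the tissues. Animal labels link the tissues of 46 mice, which entered an alternative fit as a block. Shares and relations were tested by permutation, exact or with 100000 resamples (scipy 1.17.1 and numpy 2.4.6 in Python 3.11.15, with tables read by pandas 2.3.3). The fits were tested on simulated data. No column of the table belonged to another series, and no libraries had identical counts on these elements.

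Elements were named by rule: those listed with positions by the study, the 2 most abundant of each subfamily in a tissue, every element called within a tissue, the 2 smallest p-values for genotype and for treatment in each genotype, the 3 largest called tissue differences in each direction, and the 3 highest correlations between tissues. The elements that DESeq2 called and the pairs of neighbouring numbers were named after their values were seen. Alternatives were DESeq2 1.42.0, its size factors, library totals, weaker filters, fits of only the groups compared, other thresholds, each non-treated library left out, libraries that stood apart left out, treated mice limited by label, the most abundant element left out, the 3 left-out elements put back, and only WT-nt mice for the tissues. Share values without WT-nt mouse 24 and tissue counts over elements that passed the filter in each tissue were added after seeing the data. Element sequences and most positions were not used here.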

Additional observations from a re-analysis of the deposited data

Results flagged for a closer look

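Of 50 groups of 4 to 10 libraries examined, 13 had 1 library set far from the others by Dixon's criterion. Chance gives this in about 1 in 20 groups if values are independent and normally distributed. The groups here share libraries and include levels of single elements that reach 0, so that rate cannot be set against the 13. WT-nt mouse 24 gave 7 of the 13. In cortex it was the highest WT-nt library in the share of L1 counts held by all 5 subfamilies (12.1%), by L1_Mus3 (4.95%) and by L1_Mus4 (1.56%), and in the levels of L1_Mus3_dup43099 (244 CPM) and L1_Mus4_dup8077 (384 CPM). In hippocampus the same mouse was the lowest WT-nt library, at 7.90% for all 5 subfamilies and 2.23% for L1_Mus1. TS-nt mouse 23 was lowest in cortex L1_Mus1 at 2.54%.

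The other values were levels of single elements. L1_Mus3_dup180 was highest in TS-nt mouse 26 (47.6 CPM) and in WT-nt mouse 29 (81.4 CPM) in cortex, L1_Mus3_dup20262 in TS-nt mouse 31 (46.6 CPM, cortex), L1_Mus4_dup8077 in TS-nt mouse 27 (236 CPM, cortex) and L1_Mm_dup2112 in TS-nt mouse 25 (179 CPM, hippocampus).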

How the results depend on the processing

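The filter on low counts changed the number of called elements most. With a filter of 10 counts in total, the calls in cortex were 4946 for TS-nt vs. WT-nt, 6047 for TS-t vs. WT-nt, 1284 for TS-t vs. TS-nt, 5357 for WT-t vs. WT-nt, 2926 for TS-t vs. WT-t and 1733 for the interaction. In the same order they were 1800, 1659, 1714, 1488, 1339 and 1508 in hippocampus, 3218 between tissues, and 1012 and 1343 for the tissue difference of TS-nt vs. WT-nt and of TS-t vs. TS-nt. These were 6.17% to 29.1% of 20814 elements tested in cortex (6.86% to 25.0% over all L1), 10.1% to 13.6% of 13206 in hippocampus (10.6% to 14.5%) and 4.14% to 13.2% of 24432 in both (4.70% to 13.8%). With no filter cortex gave 5863, 8293, 1039, 7074, 5511 and 1490 calls and hippocampus 0, 1831, 1838, 1290, 2513 and 1231, which were up to 21.3% of 38899 (all L1 up to 18.4%) and up to 9.04% of 27814 (up to 9.27%). An unadjusted p below 0.05 with a log2 fold change of at least 1.5 in size gave 2, 2, 3, 2 and 9 in cortex (TS-t vs. WT-t kept 0) and 6, 1, 4, 3, 1 and 8 in hippocampus. DESeq2 called 385 elements between tissues, 2 and 1 in hippocampus TS-t vs. WT-nt and TS-t vs. WT-t, and 2 and 3 subfamilies in cortex TS-nt vs. WT-nt and the interaction, and with DESeq2 size factors edgeR called 2 subfamilies in the former. Only WT-nt mice gave 20 elements and 0 subfamilies between tissues, a fit with fewer libraries. For the counts with the 1.5 threshold, DESeq2, its size factors and only WT-nt mice, shares over all L1 are not given. These counts are therefore not set against a background. The cause of the other changes was not tested.

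Some signs reversed, most of them of values near 0. The 3 left-out elements, put back, gave L1_Mm 0.14 in TS-nt vs. WT-nt in both tissues and 0.0436 in hippocampus WT-t vs. WT-nt, and in hippocampus L1_Mus1 0.00127 (TS-nt vs. WT-nt) and -0.000565 and L1_Mus2 -0.00374 (TS-t vs. TS-nt). L1_Mus2 in hippocampus TS-nt vs. WT-nt was -0.00536 with DESeq2, -0.00628 with its size factors, -0.000359 with no filter and -0.0533 without L1_Mus2_dup14312, and -0.0013 in TS-t vs. TS-nt with no filter. In cortex TS-t vs. TS-nt it was -0.0161 with library totals. Labels beginning with 20 gave L1_Mm 0.00203 (hippocampus WT-t vs. WT-nt), L1_Mus1 -0.00868 and L1_Mus2 -0.0204 (hippocampus TS-t vs. TS-nt) and L1_Mus2 -0.00387 (cortex TS-t vs. TS-nt). Between tissues L1_Mus2_dup14312 was 0.0174 (DESeq2), 0.0170 (size factors), 0.00662 (filter of 10) and 0.0494 (only WT-nt), and L1_Mus4_dup11157 was 0.0766 and 0.0769 with the first and second of these. With size factors rho between tissues passed for L1_Mm (0.363), L1_Mus2 (0.345) and L1_Mus4 (0.306) and was 0.0849 for L1_Mus1. Without libraries that stood apart rho of L1_Mm passed (0.399) and the cortex share in TS-t vs. WT-t was -0.0835.

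Leaving out 1 library gave 0 to 2 subfamilies called in cortex TS-nt vs. WT-nt (2 without WT-nt mouse 33 or 42) and 0 to 1 in hippocampus. Shares over all subfamilies in these fits are not given. Leaving out 1 library also gave L1_Mus3 -0.137 to 0.0154 in cortex WT-t vs. WT-nt (the latter without WT-nt mouse 24). In hippocampus it gave L1_Mus2 -0.0253 to 0.0201 and L1_Mus1 -0.0154 to 0.0157 in TS-t vs. TS-nt, L1_Mus2 -0.0183 to 0.0266 and L1_Mus1 -0.0232 to 0.0179 in TS-nt vs. WT-nt, and L1_Mm -0.0421 to 0.000708 in WT-t vs. WT-nt. Within a tissue no paired analysis was possible because each mouse belongs to 1 group. Between tissues the block on the mouse changed no subfamily call and gave 222 elements of 1090, or 20.4% against 23.1% over all L1.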
